A study of Homo sapiens with 45 samples.

Results

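EW24 is an established Ewing sarcoma cell line, and its RNA was compared with that of A673, EW3, MHHES1, RDES, SKES1 and TC71, the other Ewing sarcoma lines of the series. The members are the 3 libraries labelled EW-24, of 45 libraries in all, and the comparison set is the 18 parental libraries of the 6 other lines, 3 for each. Each line entered as 1 unit, and a gene counted as highest or lowest when all 3 EW24 libraries lay above or below the mean of every other line. The labels name no treatment or genetic change for these 7 lines, each is a single established line standing for 1 tumour, and nothing in the labels says that the 3 libraries of a line came from separate cultures, so the spread between them may be technical. Poly(A) RNA was sequenced, and the 18 libraries of 6 osteosarcoma lines (U2OS, SAOS2, MG63, KHOS, HOS-MNNG and G292), another bone tumour, serve only as context.

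Ewing sarcoma arises in bone or soft tissue, mostly in the young. A chromosomal translocation joins EWSR1 to a gene of the ETS family, most often FLI1 and less often ERG. The fusion protein binds GGAA repeats, turns on genes such as NR0B1, NKX2-2 and STEAP1, and represses mesenchymal genes. Lines from different patients share this program and differ in what else was lost or gained, such as CDKN2A or STAG2.

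The EW24 libraries held 27639311, 46310249 and 23132161 estimated counts, and the 18 others between 23550572 and 51413254. Levels are given in TPM, the share of transcript copies after scaling for transcript length and depth. Pearson correlations of log values between the 3 EW24 libraries ran from 0.990 to 0.997. Across 17461 genes, the Spearman correlation of EW24 with the other lines ran from 0.879 with EW3 to 0.918 with SKES1, inside the 0.869 to 0.922 seen between pairs of the other 6 lines, and from 0.785 to 0.823 with the osteosarcoma lines. These correlations describe profiles that share annotation and gene length, and carry no test. One library of the comparison set stood apart. TC71 replicate 3 held the lowest of the 18 values for 5321 of the 17461 genes, against at most 1423 for any other library, and its mean correlation with its own line was 0.977, against 0.983 to 0.996 elsewhere.

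The Ewing label of EW24 was checked on 12 marker genes. All but 1 were at 1 TPM or more in the 3 EW24 libraries, with a summed level of 1894 to 2026 TPM, inside the 1624 to 3805 TPM of the other 18. Of the 12, 2 lay below all 18 other libraries. CD99 was at 277, 279 and 314 TPM against 435 to 1886 TPM. GLI1, the 1 marker that fell short of 1 TPM, was at 0.759, 1.01 and 1.23 TPM against 4.44 to 37.2 TPM. FLI1 was at 36.3, 36.5 and 28.3 TPM and ERG at 0 in each EW24 library. NR0B1, the DAX1 receptor, was at 69.3, 64.2 and 74.0 TPM, NKX2-2 at 55.8, 55.3 and 47.6 TPM, and STEAP1 at 214, 224 and 180 TPM, all inside the range of the other lines. KCNN1, the calcium-activated potassium channel subunit named in the study's title, was at 27.1, 24 and 27.1 TPM, inside the other lines' 6.43 to 50.8 TPM. Of 13 blood cell markers, 6 were under 0.1 TPM in every EW24 library, CD3D, CD3E, MS4A1 and HBB among them at 0, and 2 reached 1 TPM in all 3. The summed blood markers stood at 26.1 to 29.8 TPM, against 5.91 to 30.6 TPM in the other 18. Of 11 epithelial markers, 2 reached 1 TPM in all 3 EW24 libraries, EPCAM and KRT5 were at 0, and the sum was 277 to 372 TPM against 2.99 to 650 TPM.

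EW24 was the highest of the 7 lines for 1204 genes and the lowest for 1551 of the 17461 genes tested, or 6.9% and 8.88%. These counts lay inside those of the other lines treated the same way, which ran from 837 highest genes in TC71 to 2742 in EW3 and from 859 lowest genes in RDES to 2614 in TC71. The stricter comparison with every single library gave 777 genes above all 18 others (4.45%) and 819 below all 18 (4.69%). Without TC71 replicate 3 those became 812 and 1009.

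EW24 stood out among the lines in a smaller set. There were 33 genes under 1 TPM in all 3 EW24 libraries and at 5 TPM or more in all 18 others, 0.427% of the 7726 genes expressed at that level in the 18. The same count was 17 for TC71, 9 for A673, 2 each for EW3 and SKES1, and 1 each for MHHES1 and RDES. In the opposite direction, 8 genes were at 5 TPM or more in all 3 EW24 libraries and under 1 TPM in all 18 others. The same count ran from 6 in MHHES1 to 29 in EW3. The order of EW24 and TC71 in the count of silent genes held with cutoffs of 1 and 2 TPM (80 against 42) and of 0.5 and 10 TPM (14 against 7), which were chosen after the data were seen. It also held without TC71 replicate 3 (33 against 18). These counts describe the lines and were not tested.

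**Figure D1:**
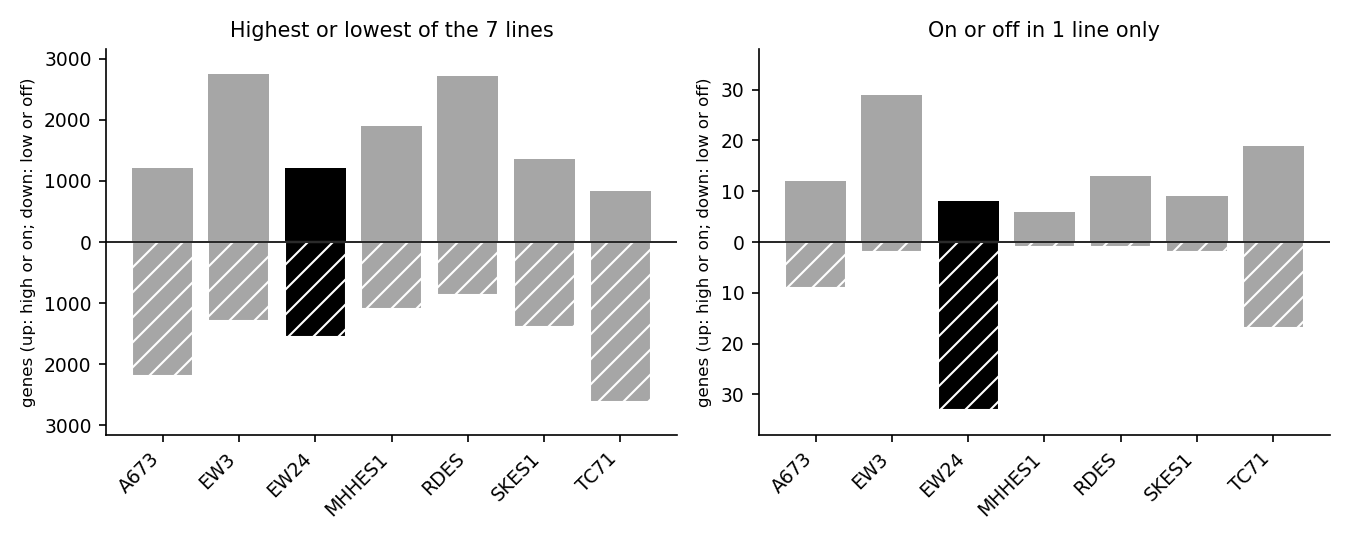
Number of genes for which each of the 7 Ewing sarcoma lines was the highest (up) or the lowest (down, hatched), and number that were on or off in that line alone (1 and 5 TPM), one bar per line on a linear axis from 0. EW24 lies inside the range of the other lines for highest and lowest genes (1204 and 1551) and has 33 genes off in it alone, against 1 to 17 in the other lines.

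The test across all genes compared the summed counts of EW24 with those of the 6 other lines by edgeR's quasi-likelihood test, with 5 residual degrees of freedom and the spread of EW24 assumed to be that of the others. At a Benjamini-Hochberg false discovery rate (FDR) under 0.05 it called 15 genes (0.0859%), of which 11 were lower (0.063%) and 4 higher (0.0229%) in EW24. At an unadjusted p under 0.05 there were 738 genes. The median log2 fold change of all tested genes was -0.11. The smallest p that an exact permutation of 1 line among 7 can give is 0.143, so no gene could be tested alone in that way.

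The 11 genes that fell were close to silent in EW24 and expressed in each of the 18 other libraries. They encode proteins of unrelated cell functions, among them mitochondrial enzymes (ETFA, GSTK1, LACTB2), a chromatin remodeller (SMARCA1), a transcription factor (TFCP2), a desmosome component (PKP1), a recycling endosome GTPase (RAB4A) and a CTP synthase (CTPS2). In RNA from bulk cultures, fewer cells expressing a gene and less RNA per cell cannot be told apart.

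PKP1 encodes plakophilin 1, a plaque protein of desmosomes, and lies at chr1:201283506-201332989 (GRCh38.p14). It was at 0.0386, 0.0151 and 0.0291 TPM in EW24, and between 158 and 461 TPM with a median of 387 TPM in the other 18 libraries. The log2 fold change was -13.62 (SE 1.37, FDR 0.0322 by edgeR's quasi-likelihood test). The groups were separated by more than 3 orders of magnitude, and PKP1 was at 0.23 TPM or less in the osteosarcoma lines too, so it was a gene of 6 of the 7 Ewing lines rather than of all tumour lines measured. Other plakophilins and desmosomal genes were looked up after the values were seen. PKP3 was at 0, 0 and 0.0285 TPM in EW24 and at 0.169 TPM or less in the 18 others. PKP2 was at 13.9, 13.8 and 14.4 TPM in EW24 and at 0.942 to 27.6 TPM elsewhere. DSP, the desmosomal linker desmoplakin, was at 14.2, 14.5 and 13.1 TPM, above the 0.0127 to 7 TPM of the 18. JUP, plakoglobin, was at 80.0, 71.1 and 81.7 TPM, above the 13.9 to 55.3 TPM of the 18, and neither of these was called.

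ETFA encodes the alpha subunit of the electron transfer flavoprotein, which carries electrons from mitochondrial acyl-CoA dehydrogenases to the respiratory chain. At chr15:76215353-76311469, it was at 0.0337, 0.158 and 0.761 TPM in EW24, at 104 to 195 TPM (median 151) in the other Ewing libraries and at 104 to 253 TPM in the osteosarcoma line means. Its log2 fold change was -8.92 (SE 0.62, FDR 0.00802, edgeR). Of the ETFA level in the other Ewing lines, 60.7% (RDES) to 73.6% (TC71) was assigned to a RefSeq transcript model listed as non-coding, and the rest to coding ones. The partners of ETFA were expressed at the level of the other lines. ETFB, the beta subunit of the same heterodimer, was at 92.1, 92.2 and 98.5 TPM against 47.9 to 143 TPM. ETFDH, the dehydrogenase that accepts the electrons, was at 24, 23.9 and 22.1 TPM against 12.1 to 28.4 TPM. Both were looked up after the values of ETFA were seen.

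TFCP2, a transcription factor of the grainyhead-like family (chr12:51093656-51173135), was at 0, 0 and 0.0667 TPM in EW24 and at 24.3 to 60.8 TPM (median 38.7) in the 18 others. EW24 held 3 counts of it in all, and the ratio to the other lines was 2571-fold lower, with a 95% exact interval of 880 to 12465 that covers counting error only (FDR 0.00278, edgeR). UBP1, its close paralogue, was at 57.1, 51.1 and 42.6 TPM, inside the 28 to 99.0 TPM of the 18. TFCP2L1, a further relative, was at 0.118, 0.0949 and 0.0916 TPM and at 0.156 TPM or less elsewhere. The osteosarcoma lines expressed TFCP2 at 13.7 to 23.9 TPM.

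SMARCA1 on the X chromosome (chrX:129446506-129523490) encodes SNF2L, one of the ISWI chromatin remodelling ATPases. Its values were 0.0701, 0.196 and 0.417 TPM in EW24 and 21.1 to 127 TPM (median 82.1) in the others, a log2 fold change of -8.40 (SE 0.67, FDR 0.0139, edgeR). The other ISWI ATPase, SMARCA5, was at 77.7, 69.9 and 72.7 TPM in EW24, which was the lowest of the 7 line means. The 18 others ran from 35.9 TPM in TC71 replicate 3, or 74.7 TPM without that library, to 131 TPM, and SMARCA5 was not called. The partners and relatives named beside the silent genes, here and below, were chosen with their values known.

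GSTK1, a glutathione transferase of mitochondria and peroxisomes (chr7:143263441-143269115), was at 0.0909, 0 and 0 TPM against 27.1 to 65.5 TPM. That was 1 count in EW24 and a ratio of 2268, with an exact interval of 407 to 89594 (FDR 0.0326, edgeR). RAB4A, which returns cargo from early endosomes to the plasma membrane (chr1:229271111-229305894), was at 0, 0 and 0.0291 TPM against 11.3 to 47.6 TPM, a ratio of 3221 with an interval of 578 to 127235 (FDR 0.0406, edgeR). RAB4B, the paralogue of RAB4A, was at 19.1, 19.3 and 23.5 TPM, and EW24 had the highest line mean of it without being called. PBDC1 (chrX:76173062-76178314) was at 0, 0 and 0.0842 TPM against 22.8 to 71.6 TPM, a ratio of 2446 with an interval of 439 to 96617 (FDR 0.0326, edgeR). Each of these 3 genes had a single count in the EW24 libraries together.

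CTPS2 (chrX:16587999-16712910), which makes CTP from UTP, was at 0.0207, 0.0721 and 0.0497 TPM against 11.5 to 26 TPM, with a log2 fold change of -8.31 (SE 0.77, FDR 0.0225, edgeR). CTPS1, the other CTP synthase, stood at 182, 175 and 194 TPM, inside the 133 to 213 TPM of the 18. LACTB2, a mitochondrial endoribonuclease (chr8:70637266-70669185), was at 0, 0.0289 and 0.112 TPM against 11.4 to 41.8 TPM. Its ratio was 568 with an interval of 194 to 2752 (FDR 0.0326, edgeR).

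FAM50B and EXD2 had no count in any EW24 library. FAM50B (chr6:3831894-3851317), an imprinted retrogene expressed from the paternal copy, was at 11 to 32.6 TPM elsewhere and at least 465-fold lower in EW24, taking 3 counts over the EW24 group as the limit that a count of 0 allows (FDR 0.0326, edgeR). FAM50A, the parent gene on the X chromosome, was at 150, 148 and 172 TPM. EXD2 (chr14:69191498-69244018), a 3' to 5' exonuclease, was at 3.62 to 9.17 TPM elsewhere and at least 468-fold lower (FDR 0.0280, edgeR). In the osteosarcoma lines both genes were near silent in some lines, with FAM50B at 0.0383 to 25.4 TPM and EXD2 at 0.00675 TPM in G292 and up to 12.4 TPM.

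With any 1 of the 6 other lines left out of the edgeR test, ETFA and TFCP2 were still called, and SMARCA1 was lost only without SKES1 (FDR 0.0732). The other 10 named calls, the higher genes ARHGAP15 and TPTE among them, were each lost without 3 to 6 of the lines, with an FDR of at most 0.150.

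**Figure D2:**
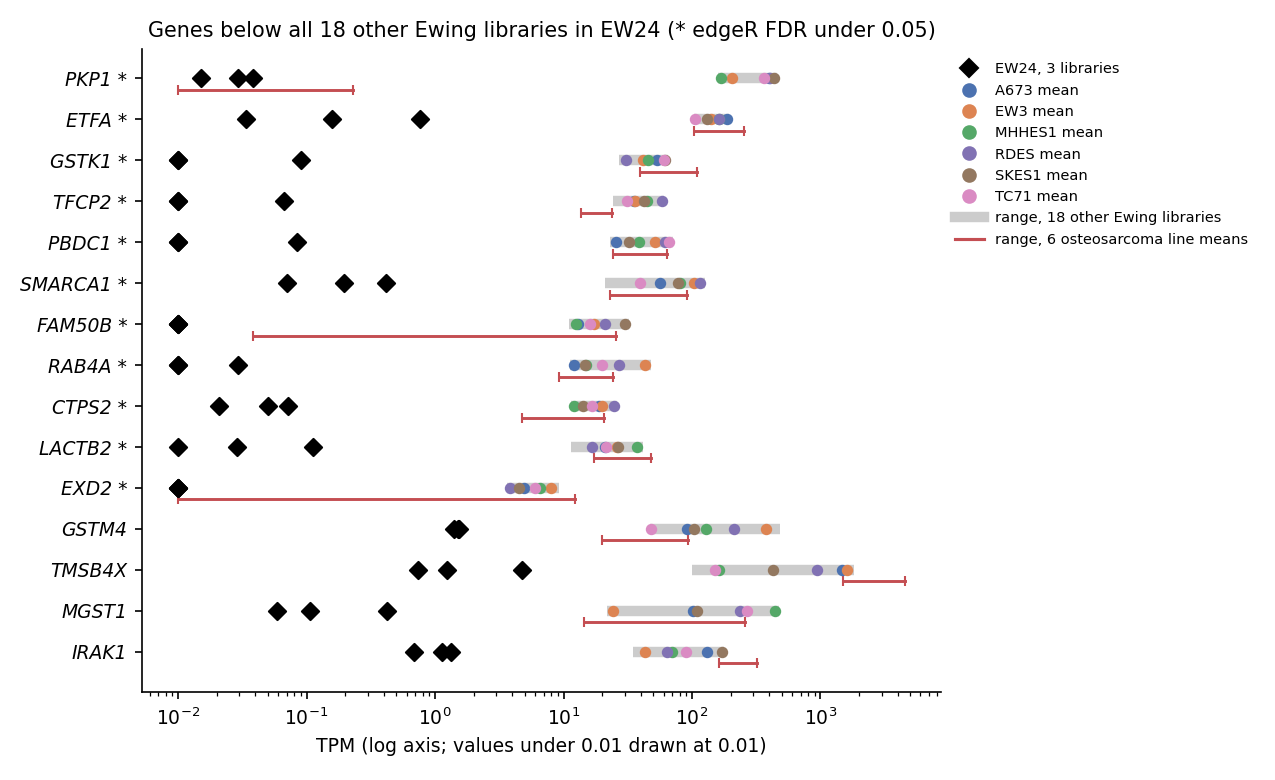
TPM on a log axis of the 15 genes named as lower in EW24, called genes first and then by the gap to the other libraries. Diamonds are the 3 EW24 libraries and dots the other line means. A grey bar gives the range of the 18 other Ewing libraries and a red line that of the 6 osteosarcoma means. Values under 0.01 are drawn at 0.01 and an asterisk marks FDR under 0.05. The genes were chosen for lying below all 18 others, and 11 of the 15 are at 5 TPM or more in all 6 osteosarcoma means.

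The sequences just upstream of 4 of these genes are printed as examples, chosen with the values known. Each line gives the 200 bases before the RefSeq start of the gene (GRCh38.p14), 5′ to 3′ on the gene's strand, with every CG, the dinucleotide that DNA methylation acts on, in capitals. The stretches are chr1:201283306-201283505 on the plus strand for PKP1, chr15:76311470-76311669 on the minus strand for ETFA, chr12:51173136-51173335 on the minus strand for TFCP2 and chr1:229270911-229271110 on the plus strand for RAB4A.
PKP1: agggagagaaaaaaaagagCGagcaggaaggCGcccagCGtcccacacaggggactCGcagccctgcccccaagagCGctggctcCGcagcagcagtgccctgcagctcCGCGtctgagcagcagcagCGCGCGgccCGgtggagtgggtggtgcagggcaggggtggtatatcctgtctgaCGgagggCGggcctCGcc
ETFA: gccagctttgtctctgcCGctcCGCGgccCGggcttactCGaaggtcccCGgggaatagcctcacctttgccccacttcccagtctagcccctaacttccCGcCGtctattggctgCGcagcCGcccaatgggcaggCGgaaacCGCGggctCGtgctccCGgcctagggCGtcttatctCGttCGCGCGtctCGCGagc
TFCP2: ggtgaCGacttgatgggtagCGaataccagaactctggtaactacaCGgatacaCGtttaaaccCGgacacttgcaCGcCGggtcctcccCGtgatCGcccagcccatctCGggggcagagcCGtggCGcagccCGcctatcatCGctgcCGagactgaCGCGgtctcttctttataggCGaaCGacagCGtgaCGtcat
RAB4A: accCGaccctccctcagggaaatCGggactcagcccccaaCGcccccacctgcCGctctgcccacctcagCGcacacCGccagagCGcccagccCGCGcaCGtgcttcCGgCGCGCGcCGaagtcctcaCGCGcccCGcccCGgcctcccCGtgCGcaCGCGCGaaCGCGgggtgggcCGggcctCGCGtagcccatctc

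The 200 bases held 15 CG in PKP1, 22 in ETFA, 21 in TFCP2 and 29 in RAB4A, and the same stretch of GSTK1, not printed, held 13. Promoters of 300 bases, 250 before to 50 after the start, were found for 29 of the 33 genes silent in EW24 alone. They ran from 1 CG in BDH1 and 6 in GPRC5D-AS1 to 45 in DOK1 and held a median of 23 CG, with a GC content of 65.3% and an observed to expected CG ratio of 0.703. The 6388 matched promoters of the 7726 genes expressed in the other 18 libraries held a median of 27 CG, 65.3% GC and a ratio of 0.874. For all 13268 matched promoters of tested genes these were 25 CG, 64.7% and 0.817, and 99.2% of them held at least 1 CG. The CG count is the same on both strands. Methylation was not measured here.

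The 33 silent genes comprised 28 protein-coding genes, 4 long non-coding RNAs and 1 transcribed pseudogene on 18 chromosomes, 5 of them on the X chromosome. The test called 10 of them. Their summed level was 5.60, 4.72 and 6.88 TPM in the 3 EW24 libraries, in which 6, 9 and 3 of them were at 0, and replicate 3 held the highest of the 3 values for 17. In all, 31 of the 33 lay below all 6 osteosarcoma means. In the osteosarcoma lines, 18 of the 33 (54.5%) were at 5 TPM or more in all 6 means, against 6914 of the 7726 genes (89.5%) expressed in the 18 Ewing libraries, and 8 were under 1 TPM in at least 1 osteosarcoma line. A few that were not called are given for their known roles, chosen after the values were seen. CHFR, a mitotic checkpoint ubiquitin ligase, was at 0.0706, 0.102 and 0.0477 TPM against 10.2 to 36.2 TPM (FDR 0.0601, edgeR). PGM1, which interconverts glucose 1-phosphate and glucose 6-phosphate, was at 0.245, 0.325 and 0.622 TPM against 11.8 to 92.6 TPM. STOM, the membrane protein stomatin, was at 0.449, 0.471 and 0.542 TPM against 19.4 to 109 TPM. CPE, the carboxypeptidase that trims peptide hormones, was at 0.138, 0.0973 and 0.0624 TPM against 5.83 to 25.7 TPM.

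The named lower genes were filled to 15 with 4 that were not called. TMSB4X, an abundant actin-sequestering peptide, was at 0.739, 1.23 and 4.79 TPM in EW24. The other lines held 100.4 to 1815 TPM of it (median 685) and the osteosarcoma lines 1501 to 4556 TPM (FDR 0.523, edgeR). TMSB10, its relative, was at 2719, 2864 and 3279 TPM, inside the 2389 to 6161 TPM of the 18. MGST1, a membrane-bound glutathione transferase, was at 0.0584, 0.107 and 0.422 TPM against 21.7 to 479 TPM (FDR 0.498, edgeR), while MGST2 was at 35.6, 32.8 and 43.5 TPM against 0.343 to 9.16 TPM and was not called either. IRAK1, a kinase that relays interleukin 1 and Toll-like receptor signals, was at 1.14, 0.687 and 1.33 TPM against 35 to 177 TPM, and IRAK4, which acts upstream of it, was at 13.5, 13.5 and 11.3 TPM against 4.94 to 11.6 TPM. GSTM4 was at 1.51, 1.55 and 1.4 TPM against 46.8 to 485 TPM, with the caution that reads of the near-identical GSTM genes can be split by the counting. All 4 lay below every one of the 18 other libraries. The last gene named by the gap between the groups on the log2(TPM + 1) scale was IRAK1, with a gap of 3.95, and the next was STOM, with 3.73.

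Of the 4 genes called higher, 2 have a name and 2 are uncharacterised loci that were counted only. Of the 4, 3 reached the filter of 1 CPM, a count scaled for depth, in EW24 alone, ARHGAP15 and TPTE among them, so they entered the test only through the line in which they were high and had to differ there. Their calls are therefore given as a description. With 1 CPM required in at least 2 lines these 3 were not tested and 1 higher call was left, a locus without a name, while all 11 lower calls stayed. ARHGAP15, a GTPase-activating protein for Rac found mainly in blood cells, was at 41, 46.0 and 36.1 TPM in EW24. The other 18 libraries held 0.025 to 0.604 TPM (median 0.139) and the osteosarcoma lines at most 0.255 TPM. The gene lies at chr2:143129419-143768352, and its log2 fold change was 6.97 (SE 0.57, FDR 0.0139, edgeR). TPTE, a phosphatase homologue known from testis (chr21:10521583-10605716), was at 5.56, 6.32 and 2.72 TPM in EW24 and at 0.0739 TPM or less in the other 18, a log2 fold change of 8.11 (SE 0.93, FDR 0.0419, edgeR). The TPTE call was lost without TC71 replicate 3 (FDR 0.0541), and U2OS, an osteosarcoma line, held 5.18 TPM. The 6 other lines held 11 counts of TPTE together. TPTE has close copies in the genome, so reads may have been split between them.

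The 200 bases before the start of ARHGAP15 (chr2:143129219-143129418, plus strand) and of KRT12 (chr17:40867224-40867423, minus strand) are shown in the same way beside the silent promoters. The ARHGAP15 stretch is counted back from the RefSeq gene start. The GENCODE transcript matched to the RefSeq transcript that held most of ARHGAP15 in EW24 begins inside it at base 143129314, so only the part before that base lies upstream of both starts.
ARHGAP15: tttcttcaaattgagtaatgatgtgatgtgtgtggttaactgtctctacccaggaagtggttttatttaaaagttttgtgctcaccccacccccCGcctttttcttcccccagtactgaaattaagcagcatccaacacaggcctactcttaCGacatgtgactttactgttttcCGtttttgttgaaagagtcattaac
KRT12: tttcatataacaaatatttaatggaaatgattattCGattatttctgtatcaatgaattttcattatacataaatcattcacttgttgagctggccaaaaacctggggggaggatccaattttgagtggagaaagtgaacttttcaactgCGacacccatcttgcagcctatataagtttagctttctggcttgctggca

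They held 3 and 2 CG. The 8 genes on in EW24 alone were at 5 TPM or more there and under 1 TPM in every other Ewing library. Of these, 5 had a matched promoter, with medians of 4 CG in 300 bases, 45% GC and an observed to expected ratio of 0.205. No set of genes silent in the other lines was counted as a background. Whether the low CG content is particular to EW24 was not tested.

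The other 13 genes named as higher separated EW24 from all 18 libraries without passing the test. KRT12, a keratin known from the cornea, was at 41, 42.7 and 36.4 TPM against 0 to 1.06 TPM (FDR 0.488, edgeR). KRT17, a basal keratin with close pseudogene copies, was at 104, 95.7 and 92.1 TPM against 0.794 to 12.7 TPM (FDR 0.347, edgeR). The basal keratins KRT5 and KRT14 were at 0 and at 0.103 TPM or less in EW24. These, and IRX1, IRX4, IRX2-DT, HBG2 and PTPRC below, were looked up after the values were seen. S100B, a calcium-binding protein used as a marker of glia and melanocytes, was at 76.6, 70.4 and 68.7 TPM against 0 to 6.18 TPM (FDR 0.781, edgeR), and it was at 0 in the osteosarcoma lines.

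GALNT13, a glycosyltransferase of neurons, was at 13.9, 14 and 15 TPM against 0 to 0.155 TPM (FDR 0.0876, edgeR). CNKSR2, a synaptic scaffold of the Ras pathway, was at 18.5, 16.4 and 13.5 TPM against 0 to 1.06 TPM. IRX2, a homeobox gene, was at 13.4, 12.6 and 10.6 TPM against 0 to 0.429 TPM. Its divergent transcript IRX2-DT was at 1.94, 2.30 and 2.85 TPM against 0 to 0.0538 TPM, and its cluster neighbours IRX1 and IRX4 were at 0.0354 TPM or less in EW24. These 3 genes were also at most 1.06 TPM in every other Ewing library.

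PTPN22, a phosphatase of lymphoid cells, was at 18.6, 24.7 and 17.6 TPM against 0.144 to 1.72 TPM (FDR 0.0791, edgeR). HLA-DMA, which loads peptides on class II molecules, was at 20.5, 22.8 and 19 TPM against 0.270 to 1.98 TPM (FDR 0.115, edgeR). HBE1, the embryonic globin chain, was at 9.44, 11.1 and 7.85 TPM against 0 to 0.159 TPM, a ratio of 1374 with an exact interval of 247 to 54280 (FDR 0.0784, edgeR). HBG2 was at 1.93, 0.843 and 1.96 TPM and listed at 0 in all 18 others. PTPRC, the pan-leukocyte marker CD45, was at 1.41, 1.52 and 0.761 TPM against 0 to 0.625 TPM.

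The remaining 4 were transcripts without a protein product. LINC03021 was at 24.2, 28.4 and 30.1 TPM against 0 to 2.40 TPM. TMEM132D-AS1 was at 10.9, 12.3 and 15.7 TPM against 0 to 0.182 TPM, a ratio of 658 with an exact interval of 182 to 5429, and U2OS held 50.9 TPM. RNF5P1, a transcribed pseudogene whose reads may come from its parent gene, was at 9.52, 9.94 and 10.1 TPM against 0 to 0.203 TPM. LINC01234 was at 9.80, 9.15 and 10.3 TPM against 0.0273 to 0.734 TPM, with a gap of 2.55 that was the last named, and SULF2 came next with 2.44. Across the 15 named higher genes, 10 also lay above all 6 osteosarcoma means. IDH2, the mitochondrial isocitrate dehydrogenase, was added after its values were seen. It was at 599, 623 and 691 TPM against 83.8 to 228 TPM and 21.8 to 109 TPM in the osteosarcoma lines (log2 fold change 2.01, FDR 0.0876, edgeR).

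**Figure D3:**
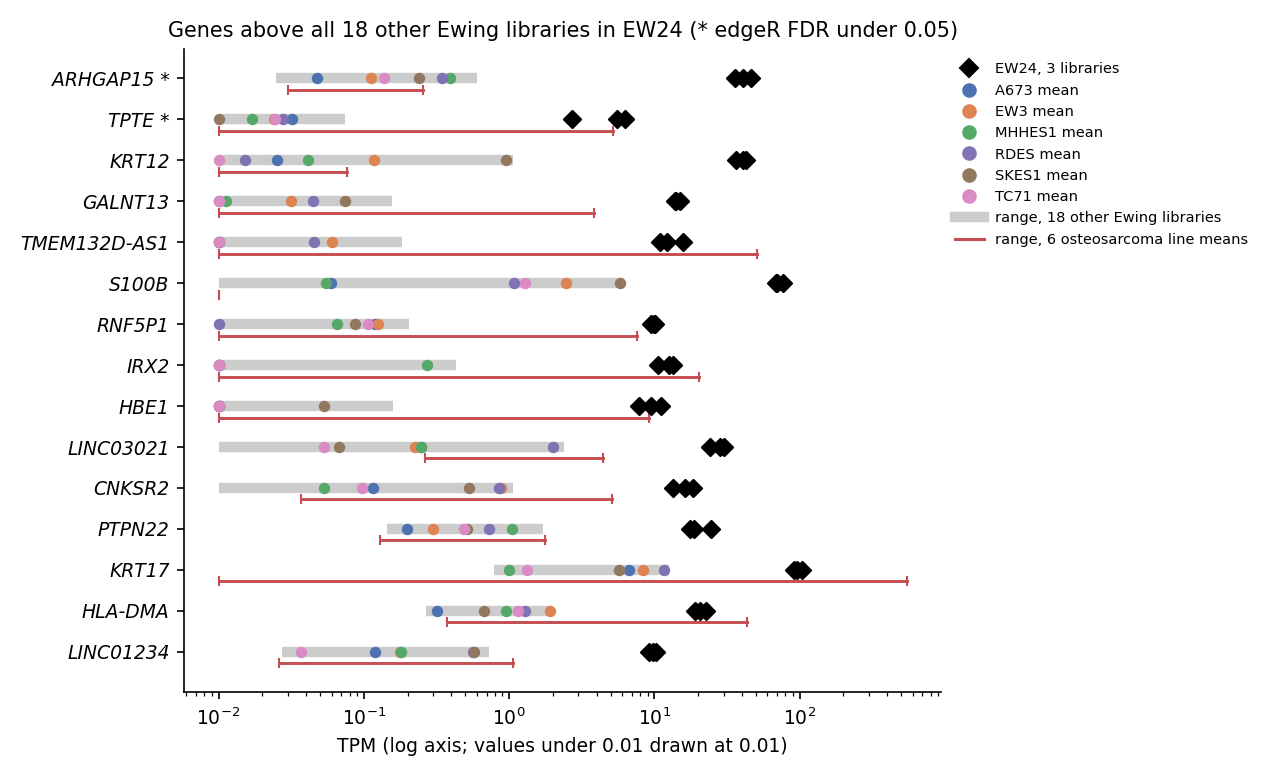
TPM on a log axis of the 15 genes named as higher in EW24, called genes first and then by the gap to the other libraries. Diamonds are the 3 EW24 libraries and dots the other line means. A grey bar gives the range of the 18 other Ewing libraries and a red line that of the 6 osteosarcoma means. Values under 0.01 are drawn at 0.01 and an asterisk marks FDR under 0.05. The genes were chosen for lying above every other Ewing library, and ARHGAP15 and TPTE, which carry the asterisk, passed the filter of 1 CPM through EW24 alone.

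Genes of 30 pathways and groups and 8 sets of cell type markers were then counted, 1007 tested genes in all. None was called by edgeR's quasi-likelihood test, 62 had an unadjusted p under 0.05 (6.16%, against 4.23% of all genes tested), and DESeq2 called 53 (5.26%, against 2.61%). EW24 was the highest line for 70 of them and the lowest for 124. The groups are given below by these counts and by their median log2 fold change, beside 6.9% highest, 8.88% lowest and a median of -0.11 for all genes. No member named from the groups was called.

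In the group of NOTCH and Hedgehog genes EW24 was the lowest line for 7 of 28 and the highest for 4, with a median of -0.40. Of the lowest, GLI1, GLI2, GLI3, PTCH1 and HHIP belong to the Hedgehog pathway, in which a ligand bound by PTCH1 releases SMO and lets the GLI factors act on their targets. GLI1, a transcription factor that is also a target of the pathway, was at 0.759, 1.01 and 1.23 TPM against 4.44 to 37.2 TPM. GLI2 was at 1.99, 1.49 and 1.90 TPM against 5.95 to 26.5 TPM. Both lay below all 18 libraries, and GLI3, at 3.45, 3.31 and 2.89 TPM, was below every other library but TC71 replicate 3 (2.31 TPM), the next being at 4.79 TPM.

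The receptor PTCH1, itself a GLI target, was at 6.02, 5.22 and 5.35 TPM against 3.58 to 22.5 TPM, of which the lowest was again TC71 replicate 3 and the next 5.38 TPM. HHIP, a decoy receptor, was at 0.0133 TPM or less against 0.0349 to 3.67 TPM. SMO, the signal transducer, did not go with them and was at 48.2, 44.1 and 54.5 TPM against 25 to 95.2 TPM. The ligand gene SHH was at 0.101, 0.0783 and 0.0946 TPM in EW24, inside the 0 to 3.23 TPM of the 18 (median 0.0487). The EW24 mean of SHH ranked 3 of 7, below only RDES (2.96 TPM) and MHHES1 (1.02 TPM). HES1, a main target of NOTCH signalling, was also among the 7 lowest, at 55, 57.2 and 45.9 TPM against 55.9 to 138 TPM. The 4 highest members, NOTCH4, DLL1, HES6 and HEY2, belong to NOTCH signalling too, and among them HES6 was at 199.96, 213 and 193 TPM against 16.4 to 167 TPM and HEY2 at 1.05, 0.814 and 0.827 TPM against 0 to 0.148 TPM. With TMM-scaled CPM in place of TPM the counts were 4 highest and 6 lowest.

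Of 26 neural and neuroendocrine genes, EW24 was the lowest line for 5 and the highest for 1, with a median of -1.25. Of the 4 neurofilament genes listed, 3 were near 0. NEFM and NEFL had 0 TPM in each EW24 library against 0.0469 to 68.0 TPM and 0 to 30.9 TPM, and NEFH was at 0.102, 0.0970 and 0.0464 TPM against 0.302 to 260 TPM. Low means occurred in other lines too, with NEFM at 0.0878 TPM and NEFL at 0.0209 TPM in SKES1 and NEFH at 0.334 TPM in A673. SKES1 held NEFH at 167 TPM. INA, the neurofilament protein alpha-internexin, was at 20.7, 14.6 and 18.9 TPM, inside the 2.42 to 28.5 TPM of the 18. SYT1, the calcium sensor of synaptic vesicle release and one of the 33 silent genes, was at 0.174, 0.0237 and 0.0174 TPM against 13.3 to 62.9 TPM (FDR 0.143, edgeR). The 18 neuropeptides and their receptors had 1 lowest and 1 highest (median -1.149). The lowest was GAL, the neuropeptide galanin, at 0, 0 and 0.265 TPM against 3.79 to 83.5 TPM, and the highest was VIPR1, a receptor for vasoactive intestinal peptide, at 19.04, 17.3 and 20.8 TPM against 0.276 to 8.42 TPM. The 37 genes of cell adhesion and guidance had 5 lowest and 4 highest (median -0.50), among the lowest DCC, a netrin receptor, at 0.00392 TPM or less against 1.35 to 20.9 TPM. S100B, the 1 highest neural gene, was above all 18 libraries, as were GALNT13 and CNKSR2, which are on none of these lists, and L1CAM, a neural adhesion molecule, at 45, 39.4 and 43.5 TPM against 0.145 to 13.7 TPM.

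**Figure D4:**
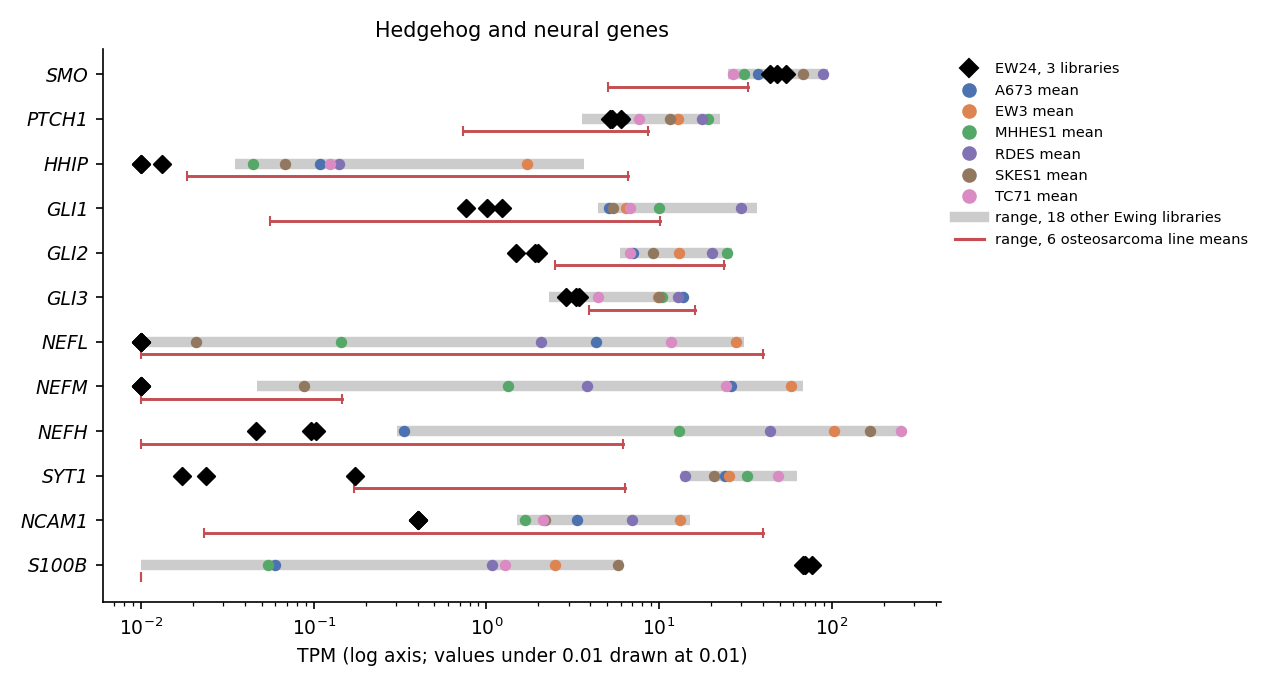
TPM on a log axis of Hedgehog and neural genes with the 3 EW24 libraries as diamonds, the other line means as dots, the range of the 18 other Ewing libraries as a grey bar and that of the 6 osteosarcoma means as a red line; values under 0.01 are drawn at 0.01. GLI1 and GLI2 lie below all 18 libraries in EW24 while SMO does not, and S100B lies above all 18.

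Of 41 genes that EWS-FLI1 activates, EW24 was the lowest line for 7 and the highest for 3, with a median of -0.15. XG, an antigen related to CD99, was at 0.607, 0.700 and 0.384 TPM against 1.12 to 85.0 TPM, and DKK2, a secreted WNT regulator, was at 1.20, 1.20 and 0.862 TPM against 5.05 to 88.1 TPM. SLCO5A1 was at 12.4, 11.5 and 11.3 TPM against 17.1 to 87.7 TPM. The 28 repressed targets had 1 highest and 2 lowest, with a median of -1.02. The lowest were PHLDA1, at 0.202, 0.197 and 0.422 TPM against 0.270 to 5.76 TPM, and SNAI2, a transcription factor of mesenchymal cells, at 1.16, 1.56 and 1.35 TPM against 1.29 to 9.02 TPM. COL3A1, a fibrillar collagen, was the highest one, at 68.4, 64.1 and 69.2 TPM against 1.46 to 72.5 TPM.

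Of 26 surface antigens of Ewing sarcoma, 6 were lowest and 1 highest in EW24 (median -0.50). CD99, the membrane protein used in diagnosis, was at 277, 279 and 314 TPM, below the 435 to 1886 TPM of every other library. NCAM1 was at 0.401 TPM in each EW24 library against 1.5 to 15 TPM. The antigens with the lowest EW24 levels relative to the others were thus XG, NCAM1 and CD99.

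Among 47 genes of FGF, IGF and receptor tyrosine kinase signalling, 9 were lowest and 3 highest (median -1.32). RET, the GDNF receptor kinase, was at 0.0311, 0.00953 and 0 TPM against 1.22 to 65.1 TPM. PDGFRB was at 1.4, 1.44 and 1.22 TPM against 5.97 to 50.2 TPM. DUSP6, an ERK phosphatase and feedback target of that pathway, was at 0.396, 0.363 and 0.608 TPM against 4.08 to 104 TPM, and DUSP4 was at 0.159 TPM or less against 0.0958 to 11.5 TPM.

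Of 36 glutathione and xenobiotic genes, 9 were lowest and 5 highest (median -0.20), and MGST1, GSTM4 and MGST2 are described above. HMOX1, heme oxygenase 1, was at 0, 0.0567 and 0.164 TPM against 3.61 to 34.6 TPM. The aldo-keto reductase AKR1C3 was at 0.131, 0.116 and 0.149 TPM, in a range of 0 to 469 TPM elsewhere. Of 32 hypoxia and glycolysis genes, 7 were lowest and 3 highest (median -0.26).

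Potassium channel genes had 5 highest and 2 lowest of 30 (median -0.22). KCNA2, a voltage-gated channel, was at 36.3, 40.7 and 25.5 TPM against 0.291 to 22.6 TPM. KCNN4, a relative of KCNN1 that is also opened by calcium, was at 3.68, 4.62 and 4.59 TPM against 0 to 1.84 TPM, and the osteosarcoma lines held 6.95 to 111 TPM. Of 24 cholesterol synthesis genes, 4 were highest and 0 lowest, with a median of 0.36. TM7SF2, a sterol reductase, was at 80.6, 78.9 and 81.5 TPM against 6.49 to 68.7 TPM.

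Of 45 interferon-stimulated genes 4 were lowest and 0 highest (median -1.56), with IFIT5 at 0.571, 0.508 and 0.603 TPM against 4.46 to 43.6 TPM. Of 29 inflammatory and NF-kB genes, 3 were lowest and 0 highest (median -2.82), with NFKBIA, the inhibitor of NF-kB, at 24.8, 26.5 and 26.2 TPM against 31.7 to 178 TPM. The shares of lowest genes, 8.89% and 10.3%, were close to the 8.88% of all genes. MHHES1 held the highest library of all 4 interferon genes lowest in EW24, and the median fold change compares EW24 with the mean of the lines that includes it. Of 49 clustered protocadherins 8 were lowest and 1 highest (median -1.48), and the members named by the rule were under 0.2 TPM in EW24.

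Of 39 WNT pathway genes 7 were lowest and 4 highest (median -0.15), and NOTUM, a secreted enzyme that inactivates WNT proteins, was at 3.20, 2.92 and 3.78 TPM against 0.0341 to 0.641 TPM. Of 36 collagen and matrix genes 5 were lowest and 1 highest (median -1.43), with NID1, a basement membrane linker, at 0.0118, 0 and 0.0934 TPM against 0.262 to 28.1 TPM. The 17 cancer-testis antigens, genes usually silent outside the germ line, had 2 lowest and 2 highest (11.8% each) and the lowest median of the groups, -5.40. That median compares EW24 with the mean of the other lines, which a few lines with high levels can raise. Of 27 imprinted genes 3 were lowest and 2 highest (median -0.35), with MEST at 0.187, 0.0918 and 0.212 TPM against 0.680 to 309 TPM and CDKN1C, a cell cycle inhibitor, at 13.02, 16.6 and 13.3 TPM against 0.877 to 11 TPM. In these groups, members thus lay at both ends of the 7 lines.

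Of 31 HOX genes 3 were lowest and 0 highest (median -0.61), and of 75 developmental transcription factors 8 were lowest and 4 highest (median -0.55). Of 35 genes of TGF-beta, BMP and activin signalling 3 were lowest and 0 highest (median -0.45), and of 43 genes of calcium entry and stores 4 were lowest and 2 highest (median -0.21). The 28 glutamate, GABA and synaptic receptor genes had 1 lowest and 3 highest (median -1.13), and the 22 genes of MHC presentation had 0 lowest and 2 highest (median -0.067). Of 32 genes of the amino acid stress response 5 were lowest and 1 highest (median -0.27), but 1 was lowest with TMM-scaled CPM. The S phase genes had 4 lowest and 5 highest of 44 (median 0.010), the G2/M genes 4 and 3 of 47 (median -0.028), and the cohesin and genome stability genes 3 and 4 of 29 (median 0.18). Of 28 p53 targets 2 were lowest and 3 highest (median -0.027).

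Among genes often altered in Ewing sarcoma, CDKN2A, which encodes the inhibitors p16 and p14ARF, was at 168, 154 and 165 TPM, above the 0 to 100.3 TPM of the 18. MTAP beside it was at 49.0, 47.1 and 47.3 TPM, and CDKN2B at 0.0319 TPM or less. STAG2, the cohesin subunit, was at 113, 121 and 79.1 TPM against 4.79 to 80.1 TPM, the highest line mean. EWSR1 was at 203, 192 and 234 TPM, with every other line mean higher. CDKN2B did not reach the filter of 1 CPM and was not tested, and none of the others was called.

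The highest and lowest genes were spread unevenly over the chromosomes. EW24 was the lowest line for 27.2% of the 254 tested genes of chromosome 18, where no other line exceeded 9.84%, and the median log2 fold change there was -0.56. Chromosome 10 had 18.9% lowest genes (other lines at most 11.9%), chromosome 22 had 17.9% (15.2%) and chromosome 2 had 15.8% (11.6%). Highest genes made up 17% of the X chromosome (other lines at most 17.3%), 16.4% of chromosome 21 (21.9%), 16% of chromosome 15 (16.5%) and 14.4% of chromosome 6 (12.3%). By TPM, chromosomes 18, 10, 22 and 2 were thus above any other line for lowest genes, and chromosome 6 for highest ones. The shares given for the other lines are by TPM only. For chromosome 22 the EW24 share with TMM-scaled counts, 13.2%, was under the 15.2% of another line by TPM. With TMM-scaled counts the lowest shares were 26% for chromosome 18, 14.8% for 10, 13.2% for 22 and 12.1% for 2, and the highest shares were 23.3% for chromosome 21, 20.8% for the X chromosome, 20.6% for 15 and 17.3% for 6. Other lines had larger shares on other chromosomes, such as 42.2% lowest genes on chromosome 13 in MHHES1 and 37.9% highest on chromosome 20 in RDES.

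Windows of 25 neighbouring tested genes, with a median of 1 highest and 2 lowest genes, showed where these genes lay together. The window at chr12:10699089-13022498 had 15 lowest and 0 highest genes, with ETV6, CDKN1B and YBX3 among them. ETV6, an ETS repressor, was at 2.12, 1.27 and 2.01 TPM against 3.11 to 10.5 TPM. CDKN1B, the cell cycle inhibitor p27, was at 28.4, 30.02 and 18.4 TPM against 19.3 TPM in TC71 replicate 3 and 30.3 to 77.9 TPM in the other 17. On chromosome 18, chr18:12785478-24397824 had 14 lowest genes, among them the phosphatase PTPN2 at 24.8, 22.3 and 20.3 TPM against 32.9 to 61.6 TPM, and chr18:47212-4455307 had 11, among them TYMS, thymidylate synthase, at 156, 158 and 170 TPM against 157 to 531 TPM. The window at chr8:22578741-25425040 had 13 and held the neurofilament genes NEFM and NEFL. Both thus lay in a stretch with many lowest genes.

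Highest genes lay together at chr6:47231532-53793675, with 14 of 25, at chr15:85203449-89778754, with 13, and at chr3:151432432-158695581, with 12. In the first of these TFAP2B, a transcription factor of neural crest, was at 115, 122 and 108 TPM against 0.1 to 54.4 TPM. In the second FANCI, a DNA crosslink repair protein, was at 127, 127 and 130.4 TPM against 46.8 to 116 TPM, and in the third GMPS, which makes GMP, was at 96.2, 97.3 and 93.3 TPM against 29.1 to 59.6 TPM. The keratin window chr17:40120529-41786711 had 10 highest and 0 lowest genes. It held KRT12, KRT17, KRT10 (47.4, 43.4 and 47.4 TPM against 10.8 to 39 TPM), JUP and IGFBP4, an IGF-binding protein (167, 156 and 185 TPM against 11.6 to 155 TPM). Copy number was not measured, and its part in these shares was not tested. Genes named from the windows were chosen after the windows were seen.

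**Figure D5:**
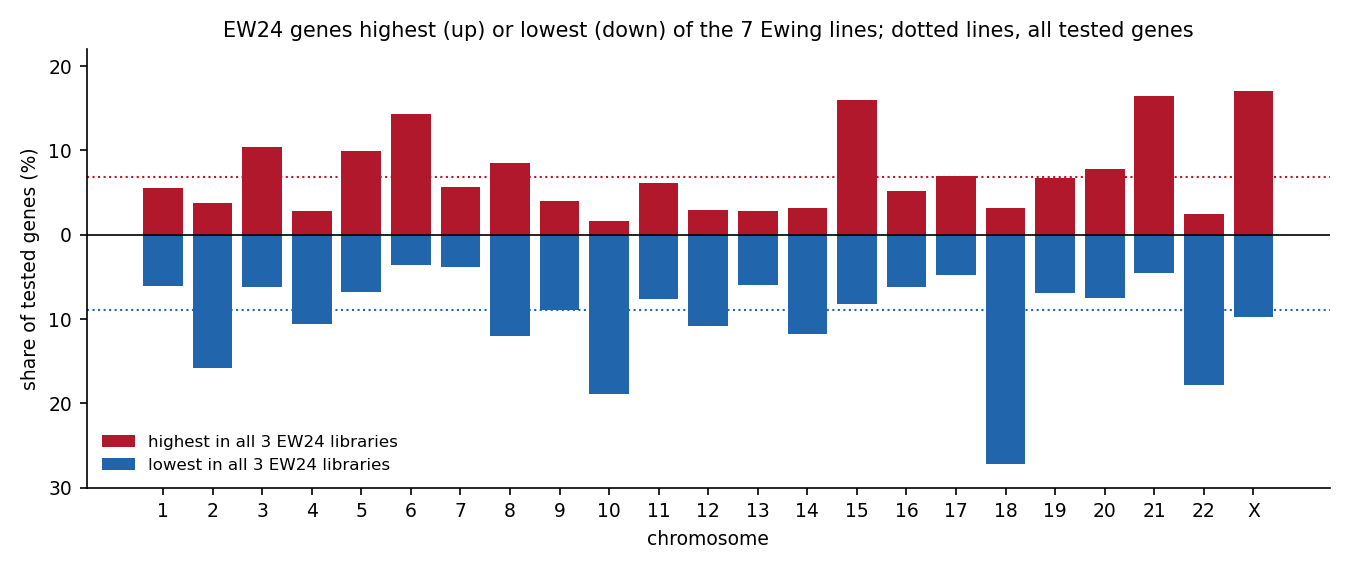
Share of tested genes on each chromosome, in percent on a linear axis, for which EW24 was the highest (up) or the lowest (down) of the 7 Ewing lines and dotted lines at 6.9% and 8.88% for all tested genes. Chromosome 18 has the largest share of lowest genes in EW24, 27.2%. The X chromosome (17%), 21 (16.4%) and 15 (16%) have the largest shares of highest genes by TPM, in an order that differs with TMM-scaled counts (20.8%, 23.3% and 20.6%).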

How the data were processed

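Poly(A) RNA of 45 cell line libraries was extracted with NucleoSpin RNA Plus and prepared with TruSeq Stranded mRNA kits, per the labels' protocols. The submitters' processing notes name fastp 0.19.5, kallisto 0.46.2 and the builds hg38 and GRCh38.p14. Per the file headers, the authors deposited estimated counts (expected counts, not scaled for depth) and TPM (scaled for effective length and depth) for 177816 RefSeq transcripts in each library; whether the counting used strand is not given in the sources used here.

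Of these transcripts, 169960 (95.6%) were joined to 41578 genes by accession through RefSeq GRCh38.p14, and the rest held 1.069 to 1.362% of the count of the Ewing libraries. Counts of the 3 libraries of a line were summed, rounded and scaled by TMM. Genes with at least 1 CPM in at least 1 of the 7 lines entered edgeR's quasi-likelihood test of EW24 against the 6 others (FDR under 0.05, Benjamini-Hochberg). Named genes had all 3 EW24 values beyond all 18 others and were ranked by the gap on log2(TPM + 1), called genes first, 15 in each direction. Loci known only by number and Y-linked genes were counted and not named. Genes from the lists were up to 4 members with the largest fold changes. Members, lists and tests were chosen with earlier results of these data known. Promoters came from RefSeq GRCh38.p14. Alternatives covered DESeq2, limma, other filters and scalings, 21 libraries as units, and leaving out each line or replicate. R 4.3.3, edgeR 4.0.16, limma 3.58.1, DESeq2 1.42.0 and Python 3.11.15 with pandas 2.3.3 were used. Library totals are given with the results. Intervals at the 95% level cover counting error only, since the files hold no molecular identifiers. The 6 hairpin libraries of A673 were not used. Some results on single genes of the lists are not reported here.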

Additional observations from a re-analysis of the deposited data

Results flagged for a closer look

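The 6 other Ewing lines were checked for a single line far from the rest on log2(TPM + 1). This was done for the 30 genes named as higher or lower in EW24, and chance marks about 1 in 20 such groups. In 4 genes 1 line lay further from its neighbours than Dixon's limit of 0.625 of the whole range. As line means, KRT12 stood at 0.959 TPM in SKES1, LINC03021 at 2.005 TPM in RDES, IRX2 at 0.273 TPM in MHHES1 and HBE1 at 0.0530 TPM in SKES1. All 4 are genes named as higher in EW24, and each library of the line that stood apart lay below EW24. For HBE1 the value rested on 1 count, the only one in the 6 other lines together, so it shows no difference between those lines. None of the 4 was called by edgeR, and their FDR ran from 0.0784 for HBE1 to 0.488 for KRT12.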

How the results depend on the processing

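The 15 calls (4 higher, 11 lower) depended on how spread was estimated. DESeq2 called 455 (41 and 414), limma-trend on log2(TPM + 1) 43 (26 and 17), and limma voom with line as a random effect 158 (116 and 42). With 21 libraries as units, which uses only the spread within lines, 9918 were called (5603 and 4315), and 10014 (5642 and 4372) with the replicate block. Replicate numbers were not used to pair samples: deviations of 13 of 63 same-numbered pairs (6 of the 18 with EW24) correlated above 0.1, against 11 of 126 differently numbered ones, with medians of 0.018 and -0.0132. Higher calls were 8 with no filter, 7 with edgeR's own filter and 1 with 1 CPM in at least 2 lines. Leaving out 1 line gave 4 calls without A673 (1 and 3), 8 without EW3 (2 and 6), 6 without MHHES1 (1 and 5), 6 without RDES (0 and 6), 2 without SKES1 (0 and 2) and 3 without TC71 (0 and 3), in fits with fewer samples, and up to 2217 lowest genes. Leaving out replicates gave 11 to 17 (3 to 5 higher, 8 to 12 lower), with 1183 to 1770 highest and 1647 to 1892 lowest genes. Without TC71 replicate 3 there were 14 (3 and 11). Among the 13 named calls, ETFA and TFCP2 were called without each line in turn, SMARCA1 without each but SKES1, and TPTE, PBDC1 and FAM50B were lost whichever line was left out. DESeq2 called all 13, limma on TPM 11 and voom 10. Without replicate 2 of every line TPTE (FDR 0.110), PBDC1, RAB4A and LACTB2 (0.0563 each) were lost, and without EW24 replicate 2 TPTE and RAB4A (0.0567 each). No sign reversed among the 30 named genes. Genes highest and lowest were 1204 and 1551, 777 and 819 against all 18 libraries, and 812 and 1009 against all but TC71 replicate 3. TMM-scaled counts gave 1531 and 1369. Without 1 line, silent genes numbered 34 to 45, against 33. A pseudocount of 0.1 kept 13 of the 15 named higher and 11 of the 15 named lower genes. With 1 line against 6, the spread of EW24 as a line could not be estimated, and low counts limit the folds of silent genes to the intervals given.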
